A study of Triticum aestivum with 3 samples.

Results

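Wheat (Triticum aestivum) seedling leaves treated with dithiothreitol (DTT) for 2 days were compared with control leaves of the same time point by degradome sequencing. Each group had 3 independent biological replicates, so that the comparison uses 6 of the 9 libraries of the series. The remaining 3 libraries, from DTT with tauroursodeoxycholic acid, served to decide which lines of the tables hold the same reads. The labels used here give seedlings as the age of the plants, and the cultivar, the DTT concentration and the medium of the control are not stated in them. The libraries were chosen by treatment label, not by any measured value, and they hold reads in 3592 of the 4574 merged degradome signals of the series.

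DTT is a membrane-permeable reductant that breaks disulphide bonds, so that secretory proteins fail to fold in the endoplasmic reticulum (ER). Plant cells answer with the unfolded protein response, in which the sensor IRE1 splices the bZIP60 messenger and bZIP28 is released from the ER, and chaperones such as BiP are induced. A degradome library captures RNA fragments with a 5′ monophosphate, the end that an Argonaute protein leaves when a microRNA guides it to slice a transcript. Reads at such an end are therefore used to find microRNA targets, but ends of other decay pathways also carry this group.

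The table of DTT against control lists 9651 pairs of a small RNA and a transcript with the raw degradome reads of each library, over 1134 small RNAs and 5826 transcripts. Pairs that hold the same reads, as related small RNAs and homeologous transcripts do, were merged into 1 degradome signal named by its strongest pair. The 3592 signals with a read in the control or DTT libraries held 34017 reads. The libraries held between 11.25M and 12.9M reads, and values below are raw reads or reads per 10M library reads. Depth per signal was low, as 65.6% of the signals had 3 reads or fewer over the 6 libraries and 476 had 10 or more. The 156 signals that passed the filter on low counts held 60.7% of the reads, and 205 signals with reads in all 6 libraries held 62.8%. The transcripts carry identifiers of chromosome arms without gene annotation, so leaf markers and ER stress genes such as BiP could not be looked up, and the labelled tissue was not checked. Degradome reads depend on the amount of a transcript, on its cleavage and on the cells sampled, and in bulk leaves fewer cells of a type and less RNA per cell cannot be told apart.

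Few degradome signals passed the test, and most of those that did were higher in DTT. Of 156 tested signals, 4 were higher and 1 lower in DTT than in the control (3.21% called, 2.56% higher and 0.641% lower) by edgeR's quasi-likelihood test at a Benjamini-Hochberg adjusted p under 0.05. The signals that rose were those of zma-MIR164h-p5_2ss4CG17CG_1, aly-MIR163-p5_2ss8GA18GC, aly-MIR161-p5 and aly-miR156a-5p_R+1_1ss20CT, and that which fell was har-miR403a_R-3. The unadjusted p was under 0.05 for 26 signals (16.7% of those tested), 14 higher and 12 lower. All 3 DTT libraries lay above all 3 control libraries in 15 signals (9.62%) and below them in 19 (12.2%). The median log2 ratio of DTT over control over all tested signals was -0.08. With scaling by TMM the calls were 3 higher and 0 lower, and with DESeq2's own size factors 4 higher and 0 lower, with medians of -0.03 and 0.11.

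**Figure D1:**
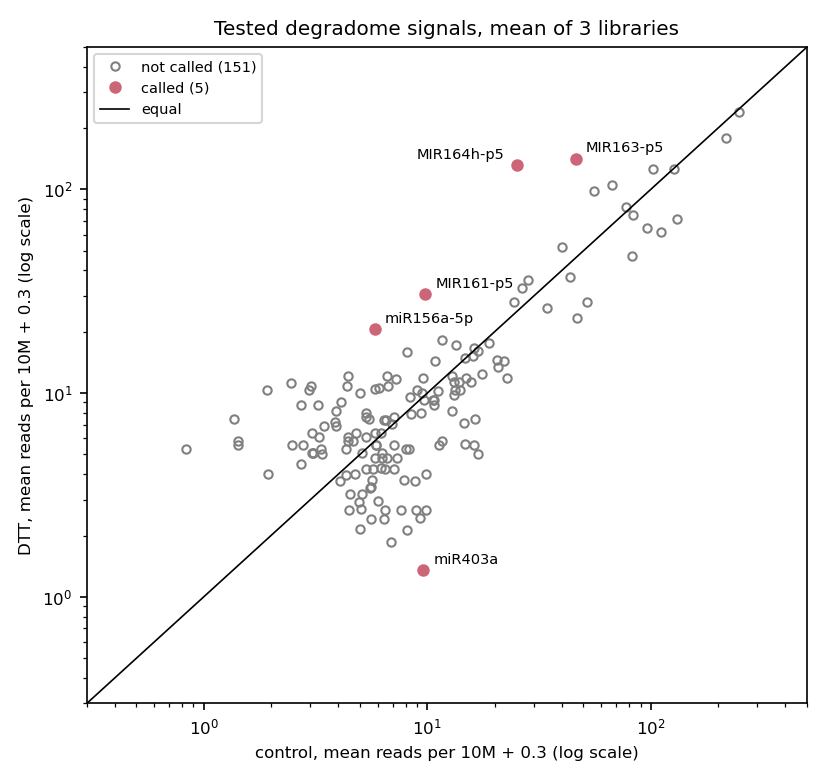
Each point is 1 of the 156 tested degradome signals, with the mean reads per 10M library reads of the 3 control libraries on the x axis and of the 3 DTT libraries on the y axis, both on log scales after adding 0.3. The 5 called signals are filled, 4 of them above the line of equality and miR403a below it.

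The largest called rise was that of zma-MIR164h-p5_2ss4CG17CG_1 on the 6AL transcript Traes_6AL_2E1CB2A66. It had 31, 37 and 23 reads in control replicates 1 to 3 and 255, 172 and 71 in DTT replicates 1 to 3. DTT replicate 3 was the lowest of its group and still lay above every control library. Per 10M reads the mean went from 25.0 ± 4.75 to 131.6 ± 73.9 (SD, n = 3), a log2 ratio of 2.39 (SE 0.48, edgeR adjusted p = 0.000212). The miR164 family is known for slicing transcripts of NAC transcription factors, among them regulators of organ boundaries and of leaf senescence, but whether the 6AL transcript encodes a NAC factor is not given in the sources used here.

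The signals of aly-MIR163-p5_2ss8GA18GC and aly-MIR161-p5 carry names of Arabidopsis lyrata microRNAs. In Arabidopsis, miR163 is known to target S-adenosyl-methionine-dependent methyltransferases and miR161 transcripts of pentatricopeptide repeat proteins. Both names are written with MIR and p5, unlike names such as aly-miR156a-5p, and the sources used here do not give what this marks. Whether these small RNAs share the targets of the known microRNAs was not tested. The MIR163 signal, on the 7BS transcript Traes_7BS_1A6D16C6B, had 51, 68 and 47 reads in the control and 170, 244 and 122 in DTT. The lowest DTT library thus held more reads than the highest control library, and the log2 ratio was 1.62 (SE 0.48, edgeR adjusted p = 0.0381). The MIR161 signal, on the 5BL transcript Traes_5BL_86F2EC1B0, had 9, 12 and 13 reads in the control and 42, 37 and 36 in DTT. Its DTT libraries were the most alike among the 4 rising signals, with 30.3 ± 2.79 reads per 10M against 9.48 ± 2.20 in the control (SD, n = 3). The log2 ratio was 1.67 (SE 0.48, edgeR adjusted p = 0.0381).

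The miR156 family restrains SPL transcription factors, which drive the change from the juvenile to the adult phase. Its signal aly-miR156a-5p_R+1_1ss20CT on the 3B transcript TRAES3BF084600040CFD_g, merged from 21 lines of different small RNAs, had 8, 6 and 6 reads in the control and 28, 40 and 9 in DTT. DTT replicate 3 lay close to the control and the other two DTT libraries far above it (log2 1.86, SE 0.56, edgeR adjusted p = 0.0402). A different transcript of the same small RNA, on 6AS and 6DS, had 31, 22 and 21 reads in the control and 21, 18 and 11 in DTT (log2 -0.63, adjusted p = 0.549). There the DTT libraries lay below the control libraries per 10M reads. The difference between these transcripts was not tested.

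The single fall was that of har-miR403a_R-3 on homeologous transcripts of 2AL, 2BL and 2DL. In Arabidopsis, miR403 is known to target AGO2, a gene of the silencing machinery. The control libraries had 11, 5 and 17 reads and the DTT libraries 0, 2 and 2. The groups did not overlap, but the whole signal rests on 37 reads (log2 -3.02, SE 0.94, edgeR adjusted p = 0.0458).

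**Figure D2:**
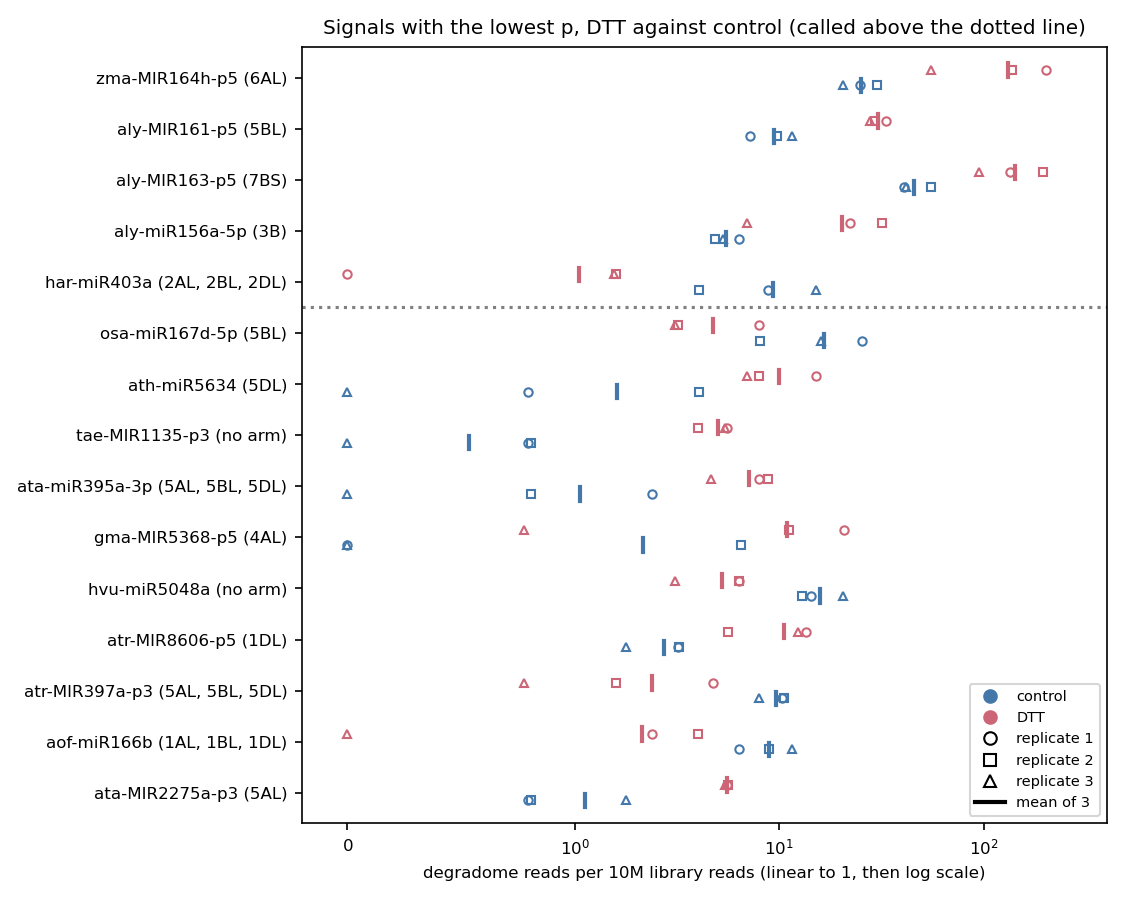
Degradome reads per 10M library reads (x axis, linear to 1 and then log scale) of the 15 signals with the lowest p, with control in blue, DTT in red, a marker shape for each replicate and a bar for the mean of 3. The 5 called signals stand above the dotted line, and their groups do not overlap. DTT replicate 3 is the lowest DTT library in 4 of them, all but miR403a.

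Every called signal lost its call in some of the refits that left out 1 library. These refits had 1 library fewer and, with the filter rerun, tested between 194 and 212 signals rather than 156. How much of a lost call came from the library itself was not tested. The call of MIR164h was lost without control replicate 1 (adjusted p = 0.0665) or 3 (0.367), and that of MIR161 without any 1 of the 6 libraries, with adjusted p between 0.0520 and 0.368. MIR163 lost its call without control replicate 1 (0.299), 2 (0.179) or 3 (0.595) or DTT replicate 2 (0.195). The miR156a call held without DTT replicate 3 (0.00884) and ended without each other library, with adjusted p from 0.0794 (DTT replicate 1) to 0.595 (control replicate 3). The miR403a call held without control replicate 2 (0.0132) and ended without each other library, with adjusted p from 0.0871 (DTT replicate 3) to 0.612 (control replicate 3). Over these refits the log2 ratio stayed between 1.94 and 2.76 for MIR164h, between 1.503 and 1.83 for MIR161, between 1.32 and 1.85 for MIR163, between 1.38 and 2.27 for miR156a, and between -3.40 and -2.48 for miR403a.

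The 10 uncalled signals with the lowest unadjusted p had adjusted p from 0.0902 to 0.194. Of these, 6 stood at a higher mean in DTT and 4 at a lower one. The signal of ath-miR5634 on 5DL had 1, 5 and 0 reads in the control and 19, 10 and 9 in DTT (log2 2.53, SE 0.88, adjusted p = 0.0902). Merged over 20 transcripts, the signal of tae-MIR1135-p3_1ss21TC had 1, 1 and 0 reads in the control and 7, 5 and 7 in DTT. With 2 control reads in all, its ratio was 9.04 with a 95% counting interval from 2.18 to 80.0. In both, every DTT library lay above every control library.

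The signal of ata-MIR2275a-p3 on 5AL, a family that triggers phased small RNAs in grass anthers, had 1, 1 and 2 reads in the control and 7 in each DTT library. That of atr-MIR8606-p5_2ss15TG18AG on 1DL had 4, 4 and 2 reads in the control and 17, 7 and 16 in DTT. For gma-MIR5368-p5_1ss6TC_1 on 4AL the counts were 0, 8 and 0 in the control and 26, 14 and 1 in DTT, and the groups overlapped. Among the lower ones, hvu-miR5048a_L+2R-2 on the transcript Novel06234 had 18, 16 and 23 reads in the control and 8, 8 and 4 in DTT, without overlap (log2 -1.57, SE 0.60, adjusted p = 0.129). The other 4 of the 10 belong to miR167, miR395, miR397 and miR166 and are given with their families. Without DTT replicate 1 the miR167d signal passed (adjusted p = 0.0325), and without control replicate 2 so did miR5634 (0.0132) and MIR5368 (0.00169). The size of the miR5634 difference also moved, with log2 ratios from 2.01 to 4.29 over the left-out libraries, and without control replicate 2 no control read of MIR5368 was left.

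Conserved families whose usual targets are regulators of growth and development held 52 of the tested signals, from 826 signals in all. Of these 52, 2 were higher and 0 lower, MIR164h and the 3B signal of miR156a, against 2.56% higher and 0.641% lower over all tested signals. Their median log2 ratio was 0.01. DTT lay above the control without overlap in 2 of them (3.85%) and below in 9 (17.3%), against 9.62% and 12.2% over all tested signals. The 9 were spread over miR156, miR160, miR166, miR167 (2 signals), miR169 (2) and miR172 (2).

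The miR160 and miR167 families act on auxin response factors, the transcription factors that read out auxin. The strongest miR160 signal, tae-miR160 on 1AL, 1BL and 1DL, had 249, 270 and 265 reads in the control and 329, 222 and 127 in DTT. The DTT libraries spread on either side of the closely grouped control libraries (log2 -0.28, SE 0.53, adjusted p = 0.824). Its signal on 6AL had 48, 55 and 81 reads in the control and 48, 31 and 26 in DTT, lower in every DTT library per 10M reads (log2 -0.89, adjusted p = 0.253). All 5 tested miR160 signals had a log2 ratio below 0, as had 86 of all 156 tested signals. That of tae-miR160 on 7AL, 7BL and 7DL was near 0 (log2 -0.0091, SE 0.49, edgeR adjusted p = 0.998). For miR167, the signal of tae-miR167b_R+1_2ss9AC21AC on 7AL and 7DL had 120, 161 and 119 reads in the control and 64, 113 and 55 in DTT. Every DTT library lay below every control library (log2 -0.85, SE 0.46, adjusted p = 0.337). The miR167 signal osa-miR167d-5p_L-3R+1 on 5BL had 32, 10 and 18 reads in the control and 10, 4 and 4 in DTT (log2 -1.78, SE 0.61, adjusted p = 0.0902), again without overlap per 10M reads.

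Summed over its 39 signals, miR167 had 205, 212 and 163 reads in the control and 104, 149 and 88 in DTT. All DTT libraries lay below all control libraries, and they still did when the strongest signal was left out (85, 51 and 44 reads against 40, 36 and 33). The remaining reads are part of the same sum and were not tested apart. The sum had a log2 ratio of -0.83 (SE 0.23, edgeR adjusted p = 0.138) and was not called. It passed with TMM (adjusted p = 0.00222), with DESeq2's own size factors (0.000117), with DESeq2 and library reads (0.0274), in 1 fit of all treatments (0.0482) and when no signal was filtered out (0.0335). Over the left-out libraries the adjusted p ran from 0.0628 to 0.437.

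The miR164 sum showed how much of a family can rest on 1 signal. It had 217, 244 and 210 reads in the control and 433, 429 and 245 in DTT (log2 0.65, SE 0.24, edgeR adjusted p = 0.185), and passed without DTT replicate 3 (0.00126). The MIR164h signal on 6AL made up 13.6% of the control reads of the family and 45.0% of its DTT reads. Without it, the other 77 signals had 186, 207 and 187 reads in the control and 178, 257 and 174 in DTT, a ratio of 0.999 (95% counting interval 0.890 to 1.12, counting error only). The tae-miR164 signals on 7AL and 7DL, with 89, 124 and 88 reads in the control and 56, 146 and 80 in DTT, overlapped between the groups (log2 -0.16, adjusted p = 0.886).

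The strongest signals of miR169, miR172 and miR166 overlapped between the groups, and some weaker ones of each family did not. The strongest miR169 signal, aly-miR169d-5p_L-1 on 4AL, had 106, 165 and 98 reads in the control and 275, 105 and 95 in DTT, in a family that targets NF-YA subunits of the CCAAT-binding complex. Its high mean in DTT came from replicate 1, and without that library the log2 ratio turned from 0.30 to -0.37. The strongest miR172 signal, aly-miR172c-3p on 2AL and 2BL, had 74, 128 and 78 reads in the control and 110, 140 and 59 in DTT (log2 0.08), in a family that acts on AP2-like factors of flowering and phase change. Another miR172 signal, aly-miR172c-3p on 5BL and 5DL, had 13, 13 and 15 reads in the control and 8, 9 and 4 in DTT, lower in every DTT library (log2 -1.03, adjusted p = 0.478). The miR166 family targets HD-ZIP III factors of leaf polarity. Its strongest signal, bdi-MIR166g-p3_2ss11TA17TG on 3AS and 3DS, had 17, 20 and 9 reads in the control and 10, 21 and 14 in DTT (log2 -0.09, edgeR adjusted p = 0.951). A weaker one, aof-miR166b_L-2 on 1AL, 1BL and 1DL, had 8, 11 and 13 reads in the control and 3, 5 and 0 in DTT (log2 -2.03, SE 0.86, adjusted p = 0.194).

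Auxin receptors of the TIR1/AFB group are the usual targets of miR393. Its strongest signal, aly-miR393a-5p_1ss16TC on 2AL, 2BL and 2DL, had 6, 22 and 19 reads in the control and 29, 26 and 9 in DTT, and the groups overlapped (log2 0.36, adjusted p = 0.757). Likewise the strongest tested signals of miR159 (GAMYB factors), miR394 (the LCR F-box protein), miR390 (TAS3 RNA), miR396 (growth-regulating factors) and miR444 (MADS-box factors) overlapped, with log2 ratios from -0.47 to 0.76 and adjusted p from 0.635 to 0.962. The signals ata-miR396c-5p and pab-miR396b hold the same count in every library, 1, 6 and 3 in the control and 11, 5 and 2 in DTT, and may be the same reads although they share neither small RNA nor transcript. The miR444 sum had 26, 27 and 21 reads in the control and 30, 42 and 33 in DTT, without overlap (log2 0.43, adjusted p = 0.500).

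**Figure D3:**
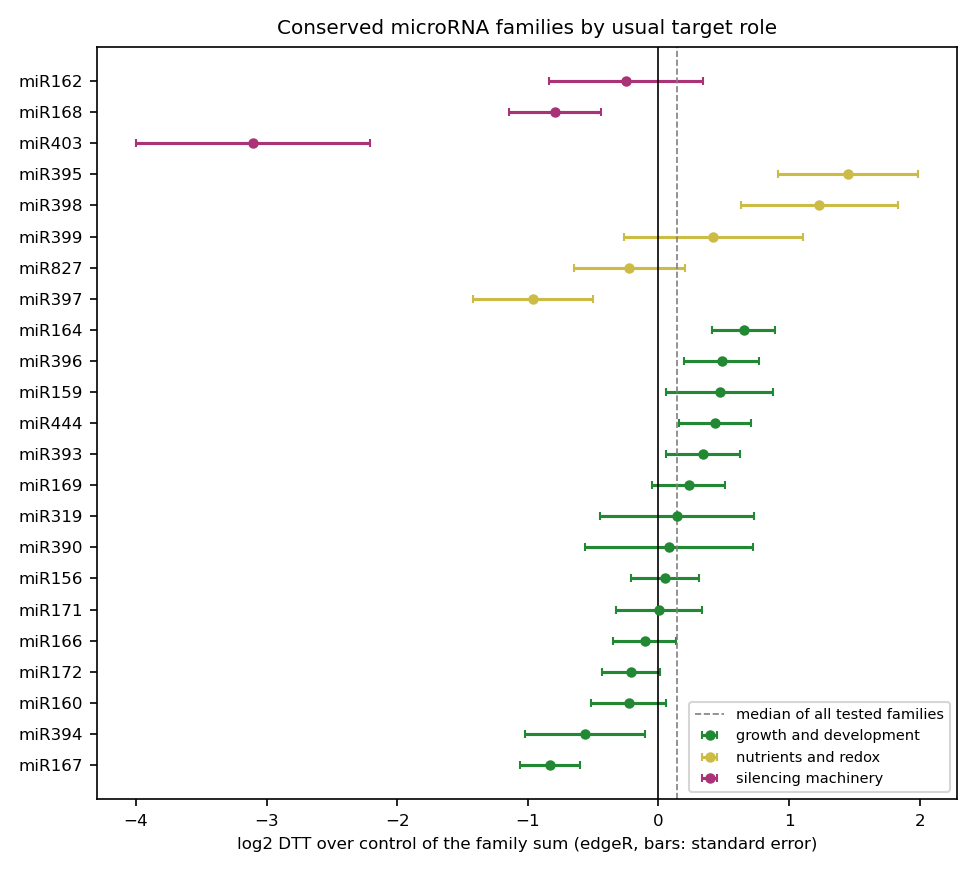
The x axis gives the log2 ratio of DTT over control of the summed reads of each tested conserved family (edgeR, points) with a standard error derived from its test statistic (bars), in 3 colours for the usual role of its targets. The dashed line is the median of all 103 tested families, at 0.14. The family farthest from 0 is miR403, at -3.10, and none of the 23 sums passed the test.

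Families tied to nutrients and redox had 7 tested signals, of which 0 were called. DTT lay above the control in 1 and below it in 1 (14.3% each), and the median log2 ratio was 0.33. Over all tested signals these shares were 9.62% and 12.2%. The first is ata-miR395a-3p_L+1 on 5AL, 5BL and 5DL, with 3, 1 and 0 reads in the control and 10, 11 and 6 in DTT (log2 2.59, SE 0.94, adjusted p = 0.111). This family targets ATP sulfurylase and a sulfate transporter and is known to rise when sulfate is short. The miR395 sum had 6, 7 and 8 reads in the control and 32, 20 and 9 in DTT, where DTT replicate 3 fell within the control range per 10M reads (log2 1.45, SE 0.54, adjusted p = 0.185). The other is the signal of atr-MIR397a-p3_2ss15AT18GT on 5AL, 5BL and 5DL, from a family that targets laccases, with 13, 13 and 9 reads in the control and 6, 2 and 1 in DTT (log2 -1.98, SE 0.82, adjusted p = 0.194).

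From the miR398 family, which targets copper/zinc superoxide dismutases, came 2 tested signals, both with a higher mean in DTT. The signal of ath-miR398b-3p_1ss20TG on 2AL had 6, 7 and 2 reads in the control and 19, 14 and 7 in DTT (log2 1.34, SE 0.74, adjusted p = 0.342). On a different transcript, tae-miR398 on 2AS, 2BS and 2DS had 7, 5 and 2 reads in the control and 19, 12 and 2 in DTT (log2 1.17, adjusted p = 0.499). In both, DTT replicates 1 and 2 lay above the control libraries and DTT replicate 3 did not. For the phosphate families, miR399 (PHO2) and miR827 (SPX-domain proteins), the strongest signals overlapped, with log2 ratios of 0.33 and -0.44. The families miR408, miR528 and miR1432 had too few reads to be tested, with 2 reads in the control and 12 in DTT for miR1432.

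The families that act on the silencing machinery itself, miR162 (DCL1), miR168 (AGO1) and miR403 (AGO2), all stood at a lower mean sum in DTT. None of these 3 sums was called, and over all 103 tested families 63 sums had a log2 ratio above 0. The miR403 sum passed in 5 of the 10 alternatives that keep all libraries, among them TMM (adjusted p = 0.0112), but in none that left out 1 library. With TMM (0.0412) and with DESeq2's own size factors (0.0105) the miR168 sum passed. The strongest miR168 signal, aof-miR168a_R-2 on 1AL, had 82, 36 and 50 reads in the control and 56, 11 and 21 in DTT. DTT replicate 1 fell within the control range and the other DTT libraries below it (log2 -0.996, SE 0.44, adjusted p = 0.196). Without DTT replicate 1 this signal passed (log2 -1.87, adjusted p = 0.00624). The sums of miR168 and miR162 had log2 ratios of -0.79 (adjusted p = 0.329) and -0.25 (0.867). Of the 2 tested signals of these families 1 was called lower, miR403a. It is also the only signal called lower among all 156 tested (0.641%), so the 2 shares rest on the same signal. The family lists were chosen with earlier results of these data known.

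Over all small RNA families, 103 of 223 had enough reads for a test of their sum, and 0 were called by edgeR (0.0%). At an unadjusted p under 0.05 there were 15 (14.6%), 11 higher and 4 lower, and in 19 (18.4%) the groups did not overlap, 14 with DTT above and 5 with DTT below. The median log2 ratio of the family sums was 0.14. DESeq2 with its own size factors called 5 higher and 5 lower, DESeq2 with library reads 3 and 2, TMM scaling 3 and 5, and limma-voom 0 and 0. The TMM and DESeq2 factors moved the median by -0.13 and -0.15.

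The family nearest to the threshold was miR8606, whose 21 signals had 7, 11 and 5 reads in the control and 26, 40 and 33 in DTT. Every DTT library lay above every control library, with 26.1 ± 5.66 reads per 10M against 6.31 ± 2.31 (SD, n = 3), a log2 ratio of 2.02 (SE 0.39, edgeR adjusted p = 0.0506). Without its strongest signal, the remaining 20 signals had 3, 7 and 3 reads in the control and 9, 33 and 17 in DTT, again without overlap. These reads are part of the same sum, which was picked by its low p, and were not tested apart. The miR8606 sum was called with TMM (adjusted p = 0.00200), with DESeq2's own factors (0.00102) and in 5 of the 8 other alternatives that keep all libraries. Of the left-out libraries, only the absence of DTT replicate 3 brought it past the threshold (0.0257).

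For miR163 the sum followed its called signal, with 80, 101 and 84 reads in the control and 216, 264 and 147 in DTT (log2 1.17, SE 0.25, edgeR adjusted p = 0.0523), and was not called. It passed in 8 of the 10 alternatives that keep all libraries, among them TMM (0.00111), DESeq2's own size factors (9.75e-06) and the replicate block (0.0338), and without DTT replicate 3 (0.00107). Without the 7BS signal the other 27 signals had 29, 33 and 37 reads in the control and 46, 20 and 25 in DTT, and the groups overlapped. The sum of miR161 was even across libraries, with 65, 63 and 59 reads in the control and 112, 111 and 112 in DTT (log2 0.77, SE 0.18, edgeR adjusted p = 0.0696). Here the remaining 53 signals, with 56, 51 and 46 reads against 70, 74 and 76, also did not overlap, a ratio of 1.37 (95% counting interval 1.11 to 1.69). Among these, aly-MIR161-p5 on 2AS, 2BS and 2DS had 8, 0 and 1 reads in the control and 3, 23 and 6 in DTT. The remaining miR161 reads are part of a sum that was picked by its low p, and they were not tested apart.

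The miR5368 family had more signals than any other, 255, most of them small. Its sum was 239, 240 and 212 reads in the control and 334, 325 and 347 in DTT, or 191.0 ± 2.87 against 264.6 ± 4.84 per 10M (SD, n = 3). The groups did not overlap, and the log2 ratio was 0.47 (SE 0.16, edgeR adjusted p = 0.185). Of its 9 tested signals 7 had a log2 ratio above 0 and 2 below, from -2.03 to 2.26. The family miR824, known in Arabidopsis to target AGL16, had 7, 4 and 5 reads in the control and 14, 17 and 15 in DTT (log2 1.43, SE 0.46, adjusted p = 0.185). For miR5049 the sum had 21, 22 and 22 reads in the control and 55, 29 and 43 in DTT, and that of miR6173 had 15, 10 and 20 and 40, 25 and 32. Both did not overlap between the groups and had an adjusted p of 0.185.

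On the lower side, the miR447 sum had 14, 16 and 9 reads in the control and 4, 0 and 5 in DTT, without overlap (log2 -2.14, SE 0.76, adjusted p = 0.185). For miR5048 the sum had 89, 112 and 147 reads in the control and 103, 64 and 36 in DTT, and DTT replicate 1 fell within the control range per 10M reads (log2 -0.86, SE 0.37, adjusted p = 0.316). The wheat family miR9676, nearly all of it in tae-miR9676-5p on the transcript Novel13637, had 71, 78 and 94 reads in the control and 127, 172 and 107 in DTT (log2 0.66, adjusted p = 0.189). For miR847, known in Arabidopsis to target IAA28, the signals differed in direction. The 1DS signal of ath-miR847_L-2 had 184, 170 and 121 reads in the control and 79, 120 and 70 in DTT, without overlap (log2 -0.88, SE 0.47, adjusted p = 0.337). Its 2BS signal had 2, 9 and 0 reads in the control and 11, 12 and 9 in DTT (log2 1.46, adjusted p = 0.343). The share of the 1DS signal in the family thus stood at 74.2% in the control and 48.3% in DTT, a difference that was not tested.

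**Figure D4:**
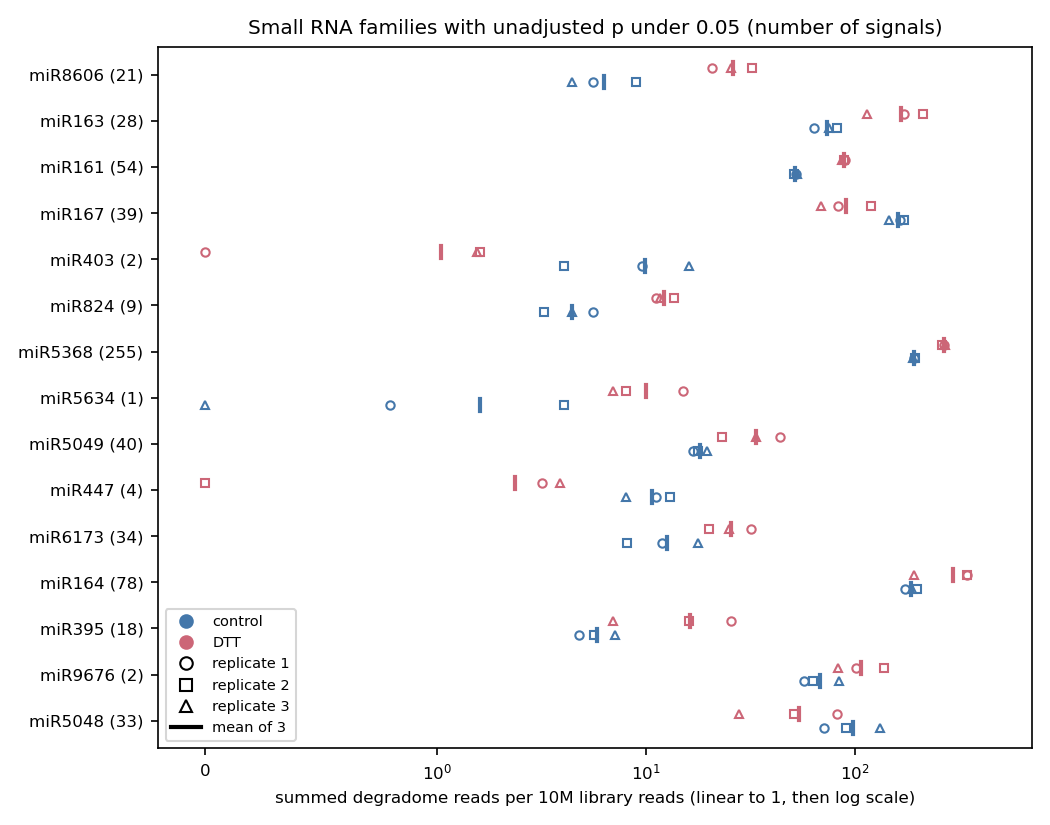
Summed degradome reads per 10M library reads (x axis, linear to 1 and then log scale) of the 15 families with an unadjusted p under 0.05, with the number of merged signals in brackets, control in blue, DTT in red, a marker shape for each replicate and a bar for the mean of 3. The 3 control libraries of miR5368 and of miR161 lie close together, and so do their 3 DTT libraries at a higher level.

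The 10 strongest degradome signals held 26.3% of the reads and the 100 strongest 55.4%. Of these 10, the MIR163 signal on 7BS was called higher, those of miR847 on 1DS and miR167b on 7AL and 7DL lay below the control in every DTT library without being called, and the other 7 overlapped between the groups. The last of the 10, aly-miR172c-3p on 2AL and 2BL, tied at 589 reads with the called MIR164h signal on 6AL, which is not among them. The strongest, PC-3p-103864_22 on the transcript Novel12989, had 241, 365 and 290 reads in the control and 426, 294 and 185 in DTT (log2 -0.06, SE 0.56, adjusted p = 0.962). PC names stand for no known family in the sources used here. A second PC signal, PC-5p-36288_69 on 4AL and 7AS, had 134, 142 and 75 reads in the control and 173, 35 and 36 in DTT. DTT replicate 1 was the highest library and the other two DTT libraries the lowest (log2 -0.58, adjusted p = 0.565), and without DTT replicate 1 the signal passed with a log2 ratio of -1.78 (adjusted p = 0.00624). Of 12 tested PC signals 0 were called, and 10 had a log2 ratio below 0, with a median of -0.48, where 3.21% of all tested signals were called and 86 of 156 lay below 0.

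DTT replicate 3 stood apart within its group. It was the lowest of the 3 DTT libraries in 89 of the 156 tested signals and in 63 of the 103 families, and DTT replicate 1 was the highest in 79 and 48. The control libraries had a read in 1163, 1242 and 1166 signals and the DTT libraries in 1435, 1273 and 1117. Reads in signals were 4057, 4741 and 4559 per 10M library reads in the control and 5587, 4889 and 3700 in DTT, so that the DTT libraries lay on both sides of the control. The number of signals gave an exact two-sided permutation p of 0.6 and the reads one of 0.8, where 3 against 3 libraries cannot go below 0.1. Refits left out each library, scaled the libraries otherwise or used the replicate number as a block. Beyond these, the part of the library differences in the results above was not tested.

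Transcripts with more than 1 tested signal numbered 12, with 24 signals. On the 5BL transcript where MIR161 rose, a second miR161 signal, aly-miR161-3p.2_L+1R-4, had 3, 10 and 1 reads in the control and 2, 5 and 6 in DTT (log2 -0.16, adjusted p = 0.951). Another signal there, of gra-MIR8650-p3_2ss15AC17TG, was not tested and had 2, 2 and 1 reads in the control and 13, 12 and 1 in DTT. On the 5BL transcript Traes_5BL_044AAF401 the length variant osa-miR167d-5p_L-4R+1 had 30, 7 and 15 reads in the control and 9, 9 and 8 in DTT (log2 -1.05, adjusted p = 0.342), beside -1.78 for the variant L-3R+1. On Novel06234, tae-miR5048-5p_L+2R-2 had 7, 7 and 12 reads in the control and 4, 3 and 2 in DTT, lower in every DTT library like hvu-miR5048a_L+2R-2. Whether signals of 1 transcript differ in their response was not tested.

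Many signals were seen in 1 treatment only, at very low counts. Reads in DTT alone occurred for 1221 signals, in the control alone for 1068 and in both for 1303. Of the DTT-only signals 50.6% had 1 read and none more than 16, and of the control-only ones 53.6% had 1 read and none more than 13. Only 26 signals had reads in all 3 DTT libraries and no control library, and 23 the reverse.

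Against a floor of 3 counts over the group, the DTT-only signal with the most reads, hvu-MIR5049d-p3_1ss2TA on 4AL, was at least 5.07-fold higher, with 2, 5 and 9 reads. A miR161 signal, aly-miR161-3p.2_L+1R-4 on 2AS, 2BS and 2DS, followed with 2, 4 and 9 reads and was at least 4.76-fold higher. Those of PC-5p-97535_24 (11, 0 and 1 reads), PC-5p-142287_15 (1, 9 and 1) and aly-miR172c-3p_L-3 on 6BL and 6DL (3, 7 and 0) rested mostly on 1 or 2 libraries. In the control alone, mes-MIR172d-p3_2ss1TA18CA on 1BL had 1, 9 and 3 reads, at least 4.55-fold lower in DTT. It was followed by zma-MIR164h-p5_2ss4CG17CG_1 on Novel00870 (0, 7 and 4 reads), atr-MIR396d-p5_2ss10AC17AT (5, 2 and 3), tcc-MIR169c-p3_2ss2TG18CT (1, 8 and 1) and aly-miR167a-3p_R-1 (4, 3 and 2). The MIR164h small RNA thus names both the signal with the largest called rise and a weak one with reads in the control only. None of these signals passed the filter, so no test was made.

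Bread wheat carries an A, a B and a D subgenome, and most transcript identifiers name the chromosome arm and so the subgenome. Signals on B transcripts alone made up 11.3%, 11.1% and 10.8% of the reads in the control libraries and 12.4%, 14.1% and 13.2% in DTT. All DTT libraries lay above all control libraries, and the exact permutation p was 0.1, which is the lowest that this design allows (adjusted p = 0.4 over 8 classes). Of the 5 called signals 3 (MIR161, MIR163 and miR156a) lie on B transcripts, and without the called signals the shares were 10.1%, 9.80% and 9.71% in the control and 9.71%, 9.65% and 10.2% in DTT. These 3 were picked from the same data as higher in DTT, so a smaller difference without them follows from that choice and is no test. The 27 tested B signals had a median log2 ratio of -0.33, with 3 called higher and 18 below 0, against 2.56% called higher and 86 of 156 below 0 over all tested signals. Whether the B signals differ from the others was not tested.

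For the A subgenome alone, DTT replicate 1 had 22.3% of its reads there and the other 5 libraries between 14.7% and 17.6%. The D share was 11.1%, 11.1% and 9.79% in the control and 8.13%, 9.68% and 10.7% in DTT (exact permutation p = 0.2). Signals shared by transcripts of A and B, but not D, held between 4.56% and 5.27% in the control libraries and 5.27%, 5.49% and 5.93% in DTT. The highest control and the lowest DTT library were equal to 3 digits (exact permutation p = 0.1, adjusted p = 0.4). Signals on all 3 subgenomes held 20.5% ± 1.28 in the control and 18.9% ± 2.29 in DTT (SD, n = 3, exact permutation p = 0.4). For the remaining classes the groups overlapped.

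**Figure D5:**
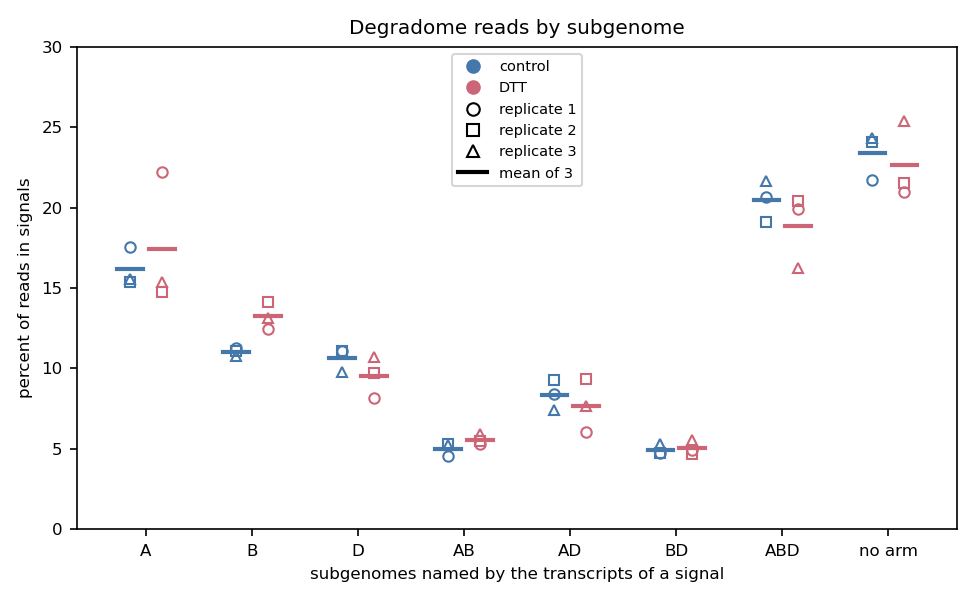
The y axis gives the percent of each library's reads in signals that lie on transcripts of 1 subgenome, of several, or without a chromosome arm (x axis), with control in blue, DTT in red, a marker shape for each replicate and a bar for the mean of 3. The B share runs from 10.8% to 11.3% in the control and from 12.4% to 14.1% in DTT, and DTT replicate 1 stands apart in the A share at 22.3%.

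By transcript class, identifiers with a chromosome arm held 69.8% ± 1.30 of the reads in the control and 70.0% ± 2.56 in DTT, transcripts named in the manner of Novel12989 19.9% ± 1.31 and 19.3% ± 1.81, EPlTAEG transcripts 3.12% ± 0.685 and 3.04% ± 0.696, and transcripts with a 3B identifier 1.65% ± 0.135 and 2.02% ± 0.317 (SD, n = 3). Signals merged over several classes held the rest, and exact permutation p was between 0.2 and 0.9 over the 5 classes. The calls lay on chromosome arm identifiers (3 higher and 1 lower of 114 tested) and on 3B identifiers (1 higher of 7), and 0 of 22 tested signals on transcripts named like Novel12989 and 0 of 2 on EPlTAEG transcripts were called, where the share called over all tested signals was 3.21%.

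By the name of the small RNA, all 5 calls carried names of other species, among 116 tested signals of that kind, and 0 of 28 signals with wheat (tae) names were called. The tae signals had a median log2 ratio of -0.07, with 3 above the control without overlap and 3 below (10.7% each), near the 9.62% and 12.2% of all tested signals. Over all tested signals 3.21% were called, and a difference between the name classes was not tested. Names of other species held 64.1%, 62.1% and 59.6% of the reads in the control and 65.9%, 65.1% and 68.3% in DTT. The groups did not overlap, with an exact permutation p of 0.1 and an adjusted p of 0.3 over 3 classes. Without the called signals these shares were 63.3%, 61.2% and 58.8% against 63.4%, 62.0% and 66.6%, and the exact permutation p was 0.2. The called signals were picked from the same data, most of them as higher in DTT, so a smaller difference without them follows from that choice. Wheat names held 25.8% ± 2.22 and 23.2% ± 2.05, and PC names 12.2% ± 0.683 and 10.4% ± 2.11 (SD, n = 3).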

How the data were processed

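Values came from the deposited table of DTT against control, with those of the other treatments used to merge lines. Per the file headers, the authors gave raw degradome read counts for each of the 6 libraries, a normalized number, which the values show to be an expected count (raw count divided by 1 to 10), and a signal named TPB, which equals that number times 1 deposited factor per library. Each factor gave the library's reads as a whole number, within 0.001; what kind of reads it counts, the sources used here do not give this, nor the mapper, transcript set or target caller. Per the labels' protocols, about 20 µg of total RNA (RIN above 7.0) and 150 ng of poly(A)+ RNA entered a library, and 36 nt were read. The deposited ratios and up or down marks were not used. GEO lists 1 sample per treatment, and the 3 columns of each were taken as its replicates from their names; whether they were separate plants is not stated beyond the replicates being independent.

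Lines sharing a small RNA or transcript, with counts over the 9 libraries whose summed difference was no more than 20% of the line with more reads, were merged (12450 pairs to 4574 signals); 3 pairs listed more than once were left out. Raw counts were tested with edgeR 4.0.16 (R 4.3.3), quasi-likelihood, library reads as library sizes, a minimum count of 5 and total of 10, Benjamini-Hochberg at 0.05. The SE of a log2 ratio was derived from this test, as the absolute log2 ratio over the square root of its F statistic. Family sums used the number after miR or MIR in the name of the strongest line (84 signals name more than 1 family). The usual targets given are those of known microRNAs of that number. Whether each small RNA shares them, also those with MIR and p3 or p5 in their names, was not tested. Shares and totals had exact two-sided permutation tests (scipy 1.17.1). Counting intervals are exact binomial at 95% and cover counting error only. DESeq2 1.42.0, limma-voom 3.58.1, TMM, other merging rules, filters and left-out libraries were alternatives. The test was checked on simulated counts. Signals named are all called ones, the 10 uncalled with the lowest p, the 10 strongest, the strongest tested of each conserved family, families with an unadjusted p under 0.05 or among the 10 strongest, and the 5 strongest seen in 1 treatment; others were chosen after their values were seen. The comparison, family lists and rules were chosen with earlier results of these data known. Replicate numbers did not pair the libraries (correlations -0.09, 0.09 and 0.03).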

Additional observations from a re-analysis of the deposited data

How the results depend on the processing

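Depth limits most signals, and with 3 libraries a group the shares and totals cannot pass 0.05. All 5 called signals kept their direction under all alternatives run. The calls were 3 higher and 0 lower with TMM, 4 and 0 with DESeq2's own size factors, 3 and 0 with DESeq2 and library reads, 2 and 0 with limma-voom, 1 and 0 without a filter on low counts, 2 and 0 with every listed line, 6 and 1 with lines merged at 5%, 4 and 1 with lines merged over 6 libraries, and 4 and 0 in 1 fit of all treatments. Leaving out 1 library gave 0 to 3 higher and 0 to 3 lower signals, 0 and 0 without control replicate 1 or 3. Of the called signals, MIR164h passed in all 10 alternatives that keep all libraries, MIR163 in 7, MIR161 in 6, miR156a in 4 and miR403a in 2.

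Family sums passed in numbers of 3 higher and 5 lower with TMM, 5 and 5 with DESeq2's own size factors, 3 and 2 with DESeq2 and library reads, 2 and 2 without a filter, 3 and 0 with lines merged at 5%, 2 and 0 with lines merged over 6 libraries, 3 and 2 in 1 fit of all treatments, and 0 and 0 with limma-voom and with signals counted in every family they name. Leaving out 1 library gave 0 to 3 higher, the 3 being miR163, miR164 and miR8606 without DTT replicate 3, and 0 lower. The replicate number as a block gave 1 higher and 0 lower signal and 1 higher family, miR163. The numbers did not pair the libraries, and control replicate 1 correlated best with DTT replicate 3 (0.24) and control replicate 2 with DTT replicate 1 (0.15).

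No uncalled result that changed sign was called under either setting. With DESeq2's own size factors and TMM the log2 ratios became 0.12 and 0.0135 for tae-miR160 on 7AL, 0.13 and 0.0140 for bdi-MIR166g-p3 on 3DS, and 0.13 and 0.00827 for tae-miR159a_R-1 on 3B. The last was 0.18 with limma-voom and 0.0600 with the replicate block, and PC-3p-103864_22 was 0.0899 with DESeq2's own factors. Without 1 library the range was -0.39 to 0.21 for PC-3p-103864_22, -0.37 to 0.57 for aly-miR169d-5p_L-1, -0.22 to 0.36 for aly-miR172c-3p on 2AL, -0.0368 to 0.74 for aly-miR393a-5p_1ss16TC, -0.0026 to 1.43 for ata-miR396c-5p, -0.30 to 0.90 for ata-miR399a-3p, -0.42 to 0.13 for bdi-MIR166g-p3, -0.0169 to 1.04 for bdi-MIR444b-p3, -0.67 to 0.19 for sly-MIR390a-p3, -0.52 to 0.44 for tae-miR159a_R-1, -0.66 to 0.0121 and -0.33 to 0.32 for tae-miR160 on 1AL and 7AL, -0.47 to 0.0535 for the miR160 sum and -0.14 to 0.45 for the miR169 sum.

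With every listed line, where the same reads count many times, the differences of DTT minus control became -122.3 signals and -3588 reads per 10M, and in percentage points 1.11 for 3B identifiers, -2.44 for chromosome arms, 0.145 for B, 1.32 for no arm, 0.0430 for PC, -0.786 for other species and 0.743 for tae. Lines merged at 5% gave 1.03 for EPlTAEG and 1.55 for B, signals of at least 10 reads gave 0.974 for A with B, and B without the called signals, an alternative chosen after seeing the data, gave -0.0418. The cause of these changes was not tested. The other 180 share and total values moved by less than 1 SD.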

Other observations

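Among the listed small RNAs, 11 carry names of animal families (let-7, miR-7 and miR-124). The let-7 signals, 13 in all, had 4, 5 and 6 reads in the control and 5, 10 and 6 in DTT, and the miR-124 signals had 1, 1 and 0 in the control and 1, 2 and 1 in DTT. Some reads thus stand under names of families that plants are not known to have.

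The Arabidopsis tasiRNA trigger miR173 had 1 tested signal, aly-miR173a-5p_L-3 on 6AL. It had 23, 16 and 19 reads in the control and 10, 11 and 6 in DTT, lower in every DTT library (log2 -1.16, adjusted p = 0.253). The remaining miR173 signals had a higher mean in DTT, with 15, 3 and 9 reads in the control and 30, 21 and 15 in DTT. Their groups overlapped, and they were not tested apart. The miR173 sum had 38, 19 and 28 reads in the control and 40, 32 and 21 in DTT (log2 0.06, adjusted p = 0.964). The family miR482, known in several plants to act on immune receptor transcripts, had 98 signals and 5 tested ones. Of these, gra-MIR482d-p3_2ss15AT17AT on 7AL had 3, 5 and 5 reads in the control and 11, 6 and 13 in DTT, without overlap (log2 1.10, adjusted p = 0.518). The wheat signal tae-MIR1122a-p3_1ss7AG on Novel11325 had 75, 70 and 56 reads in the control and 94, 105 and 174 in DTT, where DTT replicate 3 was the highest (log2 0.82, adjusted p = 0.342). These signals were chosen after their values were seen.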
